A study of Mus musculus with 4 samples.

Results

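The Stefin A cystatin cluster was represented by 4 genes, Stfa1, Stfa2, Stfa3 and Stfa2l1, taken from the 17823 genes with values in the blood RNA-seq of mice treated with naringenin (Nar). The members were all rows of the deposited table that carry 1 of these 4 symbols, and all 4 had a value in every library. The group was chosen by the low values of these genes in the Nar libraries, so their difference between Nar and control is described here without a test, and no support is drawn from it.

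The libraries were made from blood messenger RNA of C57BL/6 mice of advanced age, called adult in the sample labels, and the comparison asks which transcripts differ after Nar. The Nar group received Nar, a plant flavonoid, by injection into the tail vein for 30 days, and the control group (Ctrl) received phosphate-buffered saline for the same time. Each group had 2 libraries, numbered 1 and 3, and no source used here says whether a library came from 1 mouse or from pooled mice, so any p-value measures the spread between these libraries. Both groups shared strain, tissue and protocol.

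Stefins are the small, single-domain type of cystatin, proteins that block papain-like cysteine proteases such as the lysosomal cathepsins. They lack a signal peptide and act mainly inside the cell. Humans have a single stefin A gene, whereas the mouse carries a family of copies side by side, and mouse stefin A transcripts are known from neutrophils and their precursors in the bone marrow and from the epidermis.

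The members lie on chromosome 16 in a run of cystatin genes. In RefSeq's annotation of GRCm38.p6, a patch release of the build named in the submitters' processing notes, the run of 10 genes matched here extends over 335 kb, from Csta1 to Stfa3. Stfa2l1 (NCBI Gene 268885) lies at chr16:36156811-36161948 on the plus strand and Stfa1 (NCBI Gene 20861) at chr16:36277148-36285371 on the plus strand. Stfa2 (NCBI Gene 20862) lies at chr16:36403946-36408363 and Stfa3 (NCBI Gene 20863) at chr16:36450537-36455392, both on the minus strand. Each member has 3 exons in its GENCODE transcript, with a coding part of 309 bases in Stfa2l1, Stfa2 and Stfa3 and 291 bases in Stfa1, without the stop codon.

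The 250 bases before the RefSeq start of each member are shown so that the copies can be compared base by base, since they share letters there. Capitals mark the longest run common to all 4, the purine repeat GAGGAGGAG and the TATA-like letters TTTAAAA. The sequences are from RefSeq (GRCm38.p6), written 5′ to 3′. GENCODE starts some transcripts of Stfa1 and Stfa2 inside this stretch.
Stfa2l1, chr16:36156561-36156810, plus strand: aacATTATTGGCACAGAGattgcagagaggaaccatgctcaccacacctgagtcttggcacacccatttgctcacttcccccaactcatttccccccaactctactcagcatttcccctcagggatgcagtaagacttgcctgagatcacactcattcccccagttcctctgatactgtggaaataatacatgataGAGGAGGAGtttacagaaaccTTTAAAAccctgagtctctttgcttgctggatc
Stfa2, chr16:36408364-36408613, minus strand: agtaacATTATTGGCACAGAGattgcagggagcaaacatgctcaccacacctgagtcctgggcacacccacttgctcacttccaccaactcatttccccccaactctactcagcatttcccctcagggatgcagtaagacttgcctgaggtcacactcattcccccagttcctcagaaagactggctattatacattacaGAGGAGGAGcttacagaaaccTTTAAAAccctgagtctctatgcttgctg
Stfa1, chr16:36276898-36277147, plus strand: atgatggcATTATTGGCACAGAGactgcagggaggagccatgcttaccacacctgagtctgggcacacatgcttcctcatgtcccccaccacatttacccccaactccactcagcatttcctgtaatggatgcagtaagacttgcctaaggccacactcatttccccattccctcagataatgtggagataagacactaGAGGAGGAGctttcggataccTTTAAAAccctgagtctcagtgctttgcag
Stfa3, chr16:36455393-36455642, minus strand: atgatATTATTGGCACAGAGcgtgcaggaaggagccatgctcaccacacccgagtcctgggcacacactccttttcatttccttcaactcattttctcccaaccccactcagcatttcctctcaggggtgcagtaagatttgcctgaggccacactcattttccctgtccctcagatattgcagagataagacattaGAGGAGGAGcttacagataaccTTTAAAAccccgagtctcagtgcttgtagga

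The longest common run, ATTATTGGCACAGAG, was 15 bases long and began between 242 and 247 bases before the start. On either strand it was present in 5 of 32851 RefSeq promoter entries (0.0152%), those of the 4 members and of BC100530, a neighbour that RefSeq now calls Cstdc5. GAGGAGGAG began 50 to 54 bases and TTTAAAA 29 to 33 bases before the start in all 4 members. BC100530 held both as well, 30 and 9 bases before its start, and Gm5483 at 50 and 29 bases. Over all entries, with both strands searched, 2.75% held GAGGAGGAG and 8.10% held TTTAAAA. The letters GAGGAA, which form the core of sites of the myeloid factor PU.1, were present in all 4 members and in 23.3% of all entries. The letters TTNNGNAA, a form of the C/EBP site, were present in Stfa1, Stfa2 and Stfa2l1 and in 36.8% of all entries. Among the other genes of the run, GAGGAA was also present in Gm5483, BC100530 and Csta1, and TTNNGNAA in Gm5483, BC100530 and Gm5416. The letters TATAAA, the classical TATA box, were present in 12.4% of all entries and in none of the members. These matches describe letters only. The common run, GAGGAGGAG and TTTAAAA were chosen after the sequences had been seen.

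The first coding exon shows how alike and how different the copies are. It is given for Stfa2l1, Stfa2 and Stfa3, whose coding parts are of equal length, with capitals at the 16 of 84 positions where the 3 are not all the same.
Stfa2l1, chr16:36156837-36156920, plus strand: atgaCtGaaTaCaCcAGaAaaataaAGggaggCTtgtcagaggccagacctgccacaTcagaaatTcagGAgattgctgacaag
Stfa2, chr16:36408250-36408333, minus strand: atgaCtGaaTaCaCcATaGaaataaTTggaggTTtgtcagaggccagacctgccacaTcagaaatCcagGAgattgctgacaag
Stfa3, chr16:36455281-36455364, minus strand: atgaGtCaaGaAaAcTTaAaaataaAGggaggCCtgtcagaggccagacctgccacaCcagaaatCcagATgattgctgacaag

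Within this exon Stfa2l1 and Stfa2 differed at 6 positions, Stfa2l1 and Stfa3 at 12, and Stfa2 and Stfa3 at 14. Over the whole coding part, Stfa2l1 and Stfa2 were 96.4% identical, and Stfa3 was 81.6% identical to Stfa2l1. These figures are shares of all aligned columns, so a gap counts as a difference. Stfa1, with its shorter coding part, was 73.1% to 79.0% identical to the other members in this measure. It had 244 identical bases of 309 columns with Stfa3, against 252 of 309 for Stfa3 and Stfa2l1. With BC100530, of the same coding length, Stfa1 was 97.9% identical. These identities bear on the expression values, since a read that matches several copies can be given to any of them. Of all 50-base stretches of the Stfa2l1 transcript, 24.6% also occurred in a transcript of another gene, against 15.9% for Stfa2, 26.9% for Stfa1 and 0% for Stfa3. With 100-base stretches, 5.60% of Stfa1 and none of the other members were shared. The read length is not given in the sources used here, so single genes are reported with this uncertainty and beside their sum.

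Stfa2l1 was the most abundant member in control blood and the one with the lowest log2 fold change. Its FPKM (fragments per kilobase of transcript, scaled to the mapped fragments of the library) was 22.57 (Ctrl 1) and 29.98 (Ctrl 3) against 0.13 (Nar 1) and 2.64 (Nar 3). The Nar values were under both control values, and the lower control was 8.55-fold above the higher Nar library. The mean was 26.3 ± 5.24 FPKM (SD, n = 2) for Ctrl against 1.39 ± 1.77 (SD, n = 2) for Nar. The Nar libraries were 20.3-fold apart, which made Stfa2l1 the member with the largest spread between replicates.

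Stfa2, the near-identical copy of Stfa2l1, had the smallest spread. Its FPKM was 4.98 (Ctrl 1) and 5.39 (Ctrl 3) against 0.74 (Nar 1) and 0.67 (Nar 3), with means of 5.19 ± 0.290 (SD, n = 2) and 0.705 ± 0.0495 (SD, n = 2). The groups did not overlap, and the Nar libraries differed by 1.10-fold.

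Stfa1, the member closest to BC100530, was listed at 2.12 (Ctrl 1) and 2.45 FPKM (Ctrl 3) against 0.33 (Nar 1) and 0.23 (Nar 3). The means were 2.29 ± 0.233 (SD, n = 2) and 0.280 ± 0.0707 FPKM (SD, n = 2), again without overlap of the groups. Stfa3 was the least abundant member, at 1.58 (Ctrl 1) and 1.03 FPKM (Ctrl 3) against 0 (Nar 1) and 0.11 (Nar 3). The control mean was 1.31 ± 0.389 FPKM (SD, n = 2), and both Nar values lay below both controls. Because Stfa3 was listed at 0 in Nar 1, its fold change depends on the constant added before taking logarithms.

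**Figure D1:**
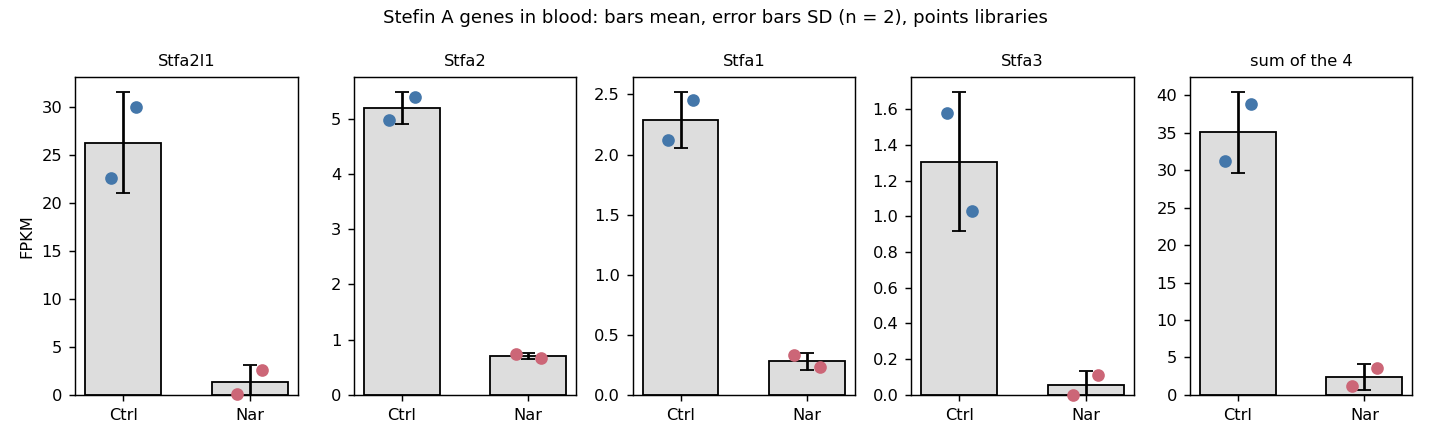
FPKM of Stfa2l1, Stfa2, Stfa1, Stfa3 and their sum in blood (y axis, FPKM, a scale of its own in each panel), with bars for the mean of 2 libraries, error bars for the SD and points for single libraries. In every panel both Nar points lie below both Ctrl points, from 31.25 and 38.85 FPKM to 1.2 and 3.65 FPKM for the sum.

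The order of the levels in control blood was Stfa2l1, Stfa2, Stfa1 and Stfa3, and no neighbours in that order overlapped in the control libraries. In Nar 3 the order was the same. In Nar 1 it was Stfa2, Stfa1, Stfa2l1 and Stfa3, with Stfa2l1 listed there at 0.13 FPKM. FPKM is scaled to transcript length, which allows levels of different genes to be set side by side.

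The sum of the 4 members was 31.25 (Ctrl 1) and 38.85 FPKM (Ctrl 3) against 1.2 (Nar 1) and 3.65 (Nar 3). The ratio of the group means was 14.5, and on log2(FPKM + 0.1), the scale used for all fold changes below, the difference between Nar and control was -3.98. The median of all 5339 genes that average 0.5 FPKM or more was itself -1.07, and the sum differed from this median by -2.91. The single log2 fold changes were -5.04 for Stfa2l1, -3.25 for Stfa3, -2.72 for Stfa2 and -2.66 for Stfa1. Counted from the lowest of the 5339 fold changes, they held places 2, 58, 127 and 137. Low places follow from the choice of these genes by their Nar values and are no support. Stfa1 and Stfa3 had Nar means of 0.280 and 0.055 FPKM and entered the 5339 only through the controls. Place 2 includes the 0.13 FPKM of Stfa2l1 in Nar 1, without which its log2 fold change was -3.25.

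The spread of the sum was mostly that of Stfa2l1. Without this gene, the sum of Stfa1, Stfa2 and Stfa3 was 8.68 (Ctrl 1) and 8.87 FPKM (Ctrl 3) against 1.07 (Nar 1) and 1.01 (Nar 3), so that the Nar libraries differed by 1.06-fold and the control libraries by 1.02-fold. Its log2 fold change was -2.96. Leaving out Nar 1 moved the log2 fold change of the 4-gene sum from -3.98 to -3.22 and that of Stfa2l1 from -5.04 to -3.25, and leaving out Nar 3 moved them to -4.75 and -6.83.

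Nar 1 also stood apart in the make-up of the sum. Stfa2l1 made up 72.2% of the summed FPKM in Ctrl 1, 77.2% in Ctrl 3 and 72.3% in Nar 3, but 10.8% in Nar 1. Stfa2 made up 15.9% and 13.9% in the controls, 18.4% in Nar 3 and 61.7% in Nar 1. Stfa2, which shares the most coding sequence with Stfa2l1, was at 0.74 FPKM in Nar 1 and 0.67 in Nar 3, and Stfa2 and Stfa2l1 together were at 0.87 and 3.31 FPKM. Of the 50-base stretches of the Stfa2l1 transcript, 16.8% also occurred in another member and 7.84% in genes other than the 10 of the run. Whether reads of Stfa2l1 were given to another gene in Nar 1 was not tested.

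**Figure D2:**
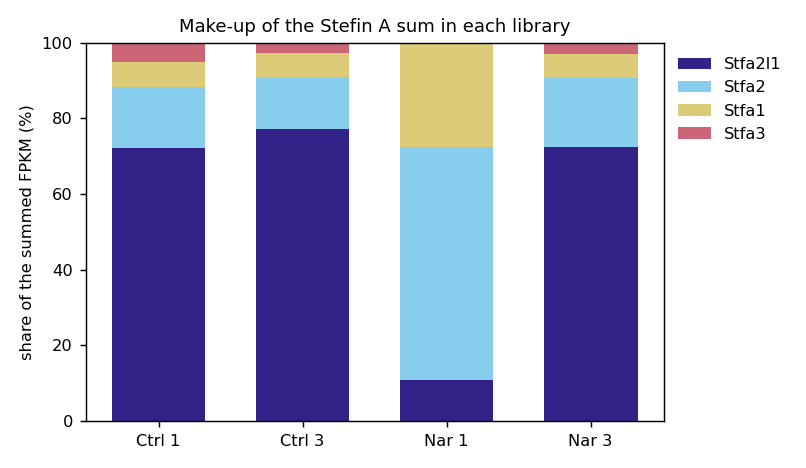
Share of each member in the summed FPKM of the 4 genes (y axis, percent), with 1 stacked bar per library. Stfa2l1 fills 72.2% to 77.2% of the bar in Ctrl 1, Ctrl 3 and Nar 3 and 10.8% in Nar 1.

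All 4 members had Nar libraries that did not overlap the controls, as did 78.3% of the 5339 genes in the same direction. All 4 passed the filter of a mean of 0.5 FPKM, and for Stfa1 and Stfa3 this rested on the control libraries, since their Nar means lay below 0.5 FPKM. A gene that passes in this way has to be lower with Nar, and this held for 1561 of the 5339 genes (29.2%), of which 57.8% were called lower in the limma fit described below. For such genes outside the members, values are given below without a p-value. Of the other 3778 genes, 31.6% were called lower. Among 206 genes with values and longest transcripts of 400 to 650 bases, the 10th percentile of values above 0 was 0.09 FPKM in Nar 1 and 0.081 in Nar 3. The values of 0.13 for Stfa2l1 in Nar 1 and 0.11 for Stfa3 in Nar 3 were close to these, at the low end of what was listed for transcripts of this size. Depth is unknown for FPKM, so no counting error can be given.

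The members' fold changes also depended on how the libraries were scaled. FPKM gives each gene's part of a library and not an amount of RNA per volume of blood. Haemoglobin genes took 92.6% to 95.1% of the summed FPKM in controls and 95.7% to 96.4% with Nar, and all other genes share the rest. When the libraries were scaled by the median of their ratios, the median of all tested genes moved from -1.07 to -0.06 and the Stefin A sum from -3.98 to -2.90. Relative to the median of all genes the sum was then at -2.84, against -2.91 on deposited FPKM. Each member remained below its control level under every scaling and pseudocount tried, with log2 fold changes from -1.12 (Stfa3, pseudocount 1) to -5.42 (Stfa2l1, pseudocount 0.01).

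Of 17 other cystatin names listed for this locus 6 had values and 3 passed the filter, of which Gm5483 and BC100530 did so only through the control libraries. Gm5483, called Cstdc4 in RefSeq, was listed at 7.37 (Ctrl 1) and 10.58 FPKM (Ctrl 3) against 0.52 (Nar 1) and 0.29 (Nar 3). Both Nar values were under both control values, at a log2 fold change of -4.18 ± 0.416 (SE). BC100530 was listed at 1.23, 2.73, 0 and 0.61 FPKM in the same order, so that its log2 fold change of -2.86 ± 0.800 (SE) depends on the added constant. It was -1.18 with a constant of 1 and -4.55 with 0.01, and -1.45 without Nar 1. In the limma fit across all genes 39.3% of the 5339 tested genes were called lower with Nar, by an adjusted p under 0.05 and a change over 2-fold, and 0.15% were called higher. The calls were 2098 and 8 genes on deposited FPKM but 19 and 5 after median-of-ratios scaling, and no gene was called without Ctrl 1 or without Ctrl 3, when 2682 and 2133 genes had an unadjusted p under 0.05.

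2010005H15Rik, called Csta2 in RefSeq, was, apart from the members, the gene of this locus with a Nar mean above 0.5 FPKM, and it did not pass the test. It was listed at 0.82 (Ctrl 1) and 1.66 FPKM (Ctrl 3) against 1.05 (Nar 1) and 0.63 (Nar 3), so that the groups overlapped, at -0.47 ± 0.428 on the log2 scale (SE, limma adjusted p = 0.346). Its direction turned with the scaling, to 0.53 after median-of-ratios scaling and 0.038 without haemoglobin genes. Its coding part was 96.9% identical to that of Gm5483, and 35.6% of the 50-base stretches of Gm5483 occurred in another gene of the cluster. Whether the fold changes of these 2 genes differ was not tested. Before their RefSeq starts the sequences were unlike, with 34.2% identity over 250 bases. The last 80 bases before each start are shown for this contrast, with GAGGAGGAG and TTTAAAA in capitals where present.
Gm5483, chr16:36184132-36184211, plus strand: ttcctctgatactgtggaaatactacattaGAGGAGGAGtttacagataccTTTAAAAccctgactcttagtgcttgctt
2010005H15Rik, chr16:36221482-36221561, plus strand: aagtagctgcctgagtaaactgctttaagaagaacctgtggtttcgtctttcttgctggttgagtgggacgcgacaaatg

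Between them, the members' upstream sequences were 79.6% to 89.4% identical, and those of Gm5483 and the members 66.0% to 70.5%. The upstream sequence of BC100530 was 69.2% to 71.1% identical to those of Stfa2l1, Stfa2 and Stfa3 and 81.2% to that of Stfa1. 2010005H15Rik had 37.2% to 41.2% identity to the members and held neither marked motif. Gm5416, a gene of the run listed at 0 FPKM in all libraries, had 56.4% to 60.4% identity to the members. It held TTTAAAA, 77 bases before its start, but not GAGGAGGAG. Csta1 had 36.8% to 39.5% identity to the members and neither motif. Whether upstream likeness goes with the difference between Nar and control was not tested.

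BC117090 had 0.14 and 0.19 FPKM in controls and was listed at 0 in both Nar libraries, Csta1 at 0 to 0.02 FPKM, and Gm5416 at 0 throughout. None of these 3 genes reached the mean of 0.5 FPKM. Of the genes looked up next to the cluster, Casr had no values. The others were also low, with Fam162a at 0.52, 0.50, 0.07 and 0.22 FPKM and Ccdc58 and Wdr5b at 0.28 FPKM or less in every library. They were picked by their position after the values of the cluster had been seen.

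**Figure D3:**
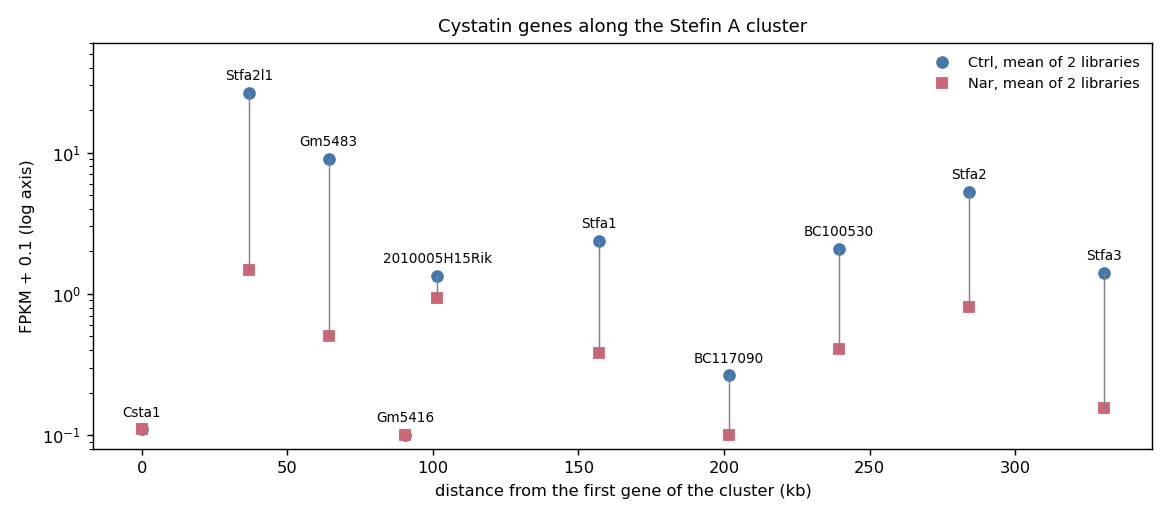
Mean FPKM + 0.1 (y axis, log axis) of 10 cystatin genes against the distance of the gene's lower end from the first gene of the run (x axis, kb), with blue circles for Ctrl and red squares for Nar (means of 2 libraries). Stfa2l1 and Gm5483 are highest in Ctrl, at 26.3 and 8.98 FPKM before the 0.1 is added, and 2010005H15Rik has the shortest line among genes above 1 FPKM in Ctrl.

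Outside the cluster, 6 of 17 listed cystatin family genes had values and Cst3, Cstb and Cst7 could be tested. Cstb encodes stefin B, the other intracellular stefin, and was listed at 1.73, 1.90, 0.52 and 0.44 FPKM in Ctrl 1, Ctrl 3, Nar 1 and Nar 3. Its log2 fold change was -1.73 ± 0.338 (SE). Cst7, which encodes the endolysosomal cystatin F of immune cells, had 0.94 and 1.36 FPKM in controls and 0.18 and 0.26 with Nar, a log2 fold change of -1.96 ± 0.411 (SE). Both genes had Nar means under 0.5 FPKM and passed the filter only through the controls, so their direction was fixed by it. Cst3, the gene of the secreted cystatin C, had 32.87 and 34.66 FPKM in controls and 12.58 and 14.02 with Nar, and did not pass (log2 fold change -1.34, limma adjusted p = 0.0542), but passed without the variance trend (limma adjusted p = 0.0351, in a range from 0.0119 to 0.947 over all alternatives). Cst6, Cstl1 and Ahsg had no value above 0.08 FPKM.

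Papain family cathepsins are the proteases that stefins inhibit. Of 6 genes with a Nar mean of at least 0.5 FPKM 3 were called lower, beside 31.6% of all such genes, and none was called higher. Ctss, a cathepsin of antigen-presenting cells, fell from 24.68 and 11.81 to 6.38 and 4.06 FPKM (limma adjusted p = 0.0379). Ctsc, which activates the serine proteases of neutrophil granules, fell by 1.96 on the log2 scale and Ctsh by 1.53, with limma adjusted p-values of 0.0234 and 0.0267. With a library left out, the log2 fold change of Ctsc ran from -2.59 (without Nar 1) to -1.33 (without Nar 3). Ctsl, at 0.71 and 1.52 FPKM in controls and 0.16 and 0.18 with Nar, and Ctsw, at 1.23 and 1.00 against 0.42 and 0.31, passed the filter only through the controls. Ctsz had a log2 fold change of -1.39 and did not pass (limma adjusted p = 0.0545), but passed without the variance trend (limma adjusted p = 0.0427, in a range from 0.00993 to 0.925 over all alternatives). Ctso and Ctsk were below the filter, at most at 0.78 FPKM in any library. After median-of-ratios scaling 0 of the 6 genes with a Nar mean of at least 0.5 FPKM were called, with 2 at an unadjusted p under 0.05, beside 14.0% of all tested genes under that scaling. Without haemoglobin genes 0 of these 6 were called, with 4 at an unadjusted p under 0.05, beside 21.5% of all tested genes. With a replicate block only Ctsc of these 6 was called, beside 1802 of all 5339 tested genes called lower.

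Ctsb, the most abundant of these proteases in all 4 libraries, did not pass the test. Its FPKM was 67.91 (Ctrl 1) and 100.79 (Ctrl 3) against 111.19 (Nar 1) and 84.77 (Nar 3), so that the groups overlapped (log2 fold change 0.23, standard error 0.501, limma adjusted p = 0.695). Ctsf also overlapped, with 0.40, 1.06, 0.69 and 1.06 FPKM (log2 fold change 0.33, limma adjusted p = 0.542). The log2 fold changes of Ctsb and Ctsf were 1.34 and 1.30 after median-of-ratios scaling and 0.79 and 0.84 without haemoglobin genes, and without Ctrl 1 they turned to -0.054 and -0.28. Neither gene passed the test in any of these fits.

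**Figure D4:**
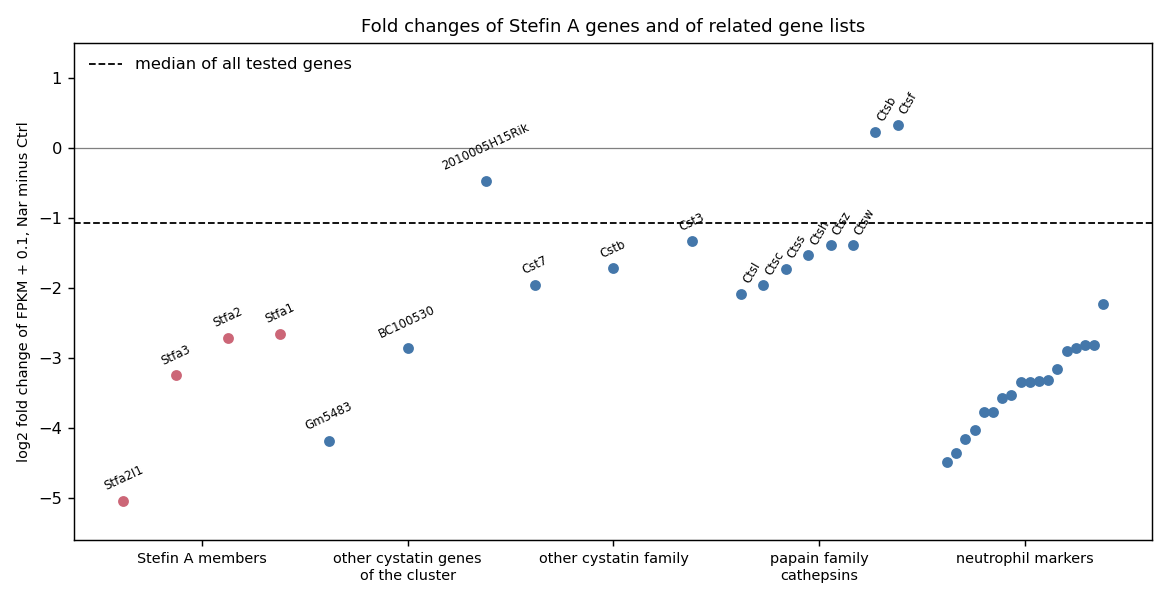
Log2 fold changes on log2(FPKM + 0.1), Nar minus Ctrl (y axis), with 1 point per gene for the 4 members (red) and for tested genes of 4 other lists (blue), each list sorted from low to high. The dashed line is the median of all tested genes at -1.07. Ctsb and Ctsf are the only points above 0, at 0.23 and 0.33, and turn below 0 without Ctrl 1, while 2010005H15Rik, at -0.47, turns above 0 after median-of-ratios scaling or without haemoglobin genes.

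Neutrophil marker genes moved with the Stefin A genes. Of the 18 markers 15 had a Nar mean of at least 0.5 FPKM, and all 15 were called lower, beside 31.6% of all such genes. Camp, Ltf and Padi4 passed the filter only through the controls. Over the 18 markers the median log2 fold change was -3.35, with a range from -4.49 (Ngp) to -2.24 (Fpr1). Their summed FPKM was 1477 to 1785 in controls and 109 to 170 with Nar. The 3 most abundant were S100a9, at 724.3 and 553.6 FPKM in controls and 41.53 and 67.46 with Nar, S100a8, at 447.04 and 399.87 against 34.66 and 49.12, and Retnlg, at 255.33 and 235.13 against 12.40 and 25.75. They encode the calprotectin subunits and a resistin-like protein. The granule genes Camp and Ltf were, after Ngp, the markers with the lowest log2 fold changes, at -4.36 and -4.17, and Fpr2, a formyl peptide receptor like Fpr1, and the receptor Trem1 were, after Fpr1, those with the highest, at -2.82 and -2.83. Limma adjusted p-values over the 15 genes ran from 0.00247 to 0.0120. After median-of-ratios scaling 1 of these 15 was called, Ngp, while all 15 had an unadjusted p under 0.05, beside 14.0% of all tested genes. In bulk blood, fewer cells of a type and less RNA per cell cannot be told apart.

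Set against these markers, the Stefin A sum overlapped between the groups. It equalled 1.75% (Ctrl 1) and 2.63% (Ctrl 3) of that marker sum against 1.10% (Nar 1) and 2.15% (Nar 3), so Nar 3 lay between the controls. For Stfa1, Stfa2 and Stfa3 together the figures were 0.486% and 0.600% in controls and 0.982% and 0.595% with Nar, and here too the groups overlapped. The log2 fold change of the Stefin A sum differed from the median of the markers by -0.63. Without Nar 1 this difference was -0.032 and without Nar 3 it was -1.15. The part of neutrophil RNA in the lower Stefin A values was not tested.

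**Figure D5:**
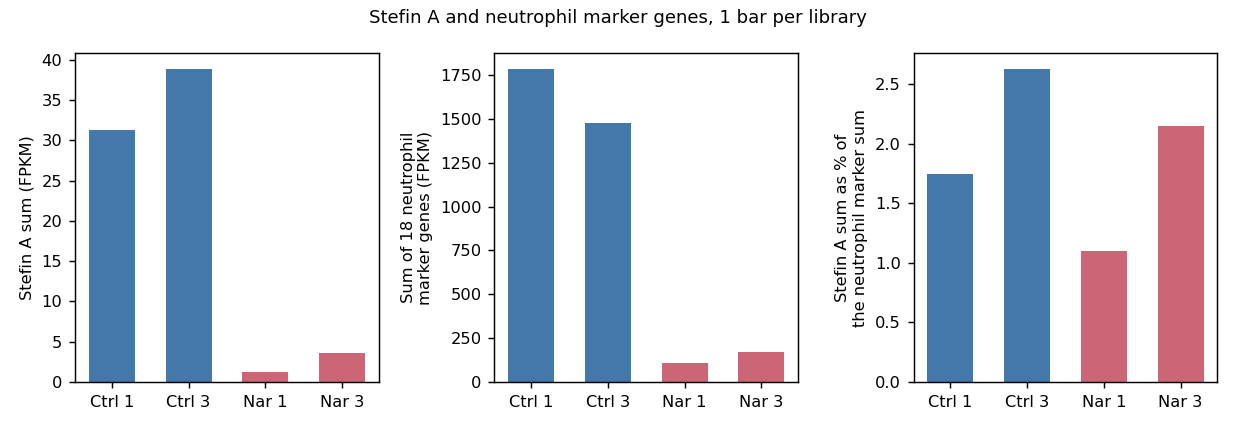
From left to right, the Stefin A sum (FPKM), the sum of 18 neutrophil marker genes (FPKM) and the first as a percentage of the second (y axes), with 1 bar per library, Ctrl in blue and Nar in red. Both sums are lower in each Nar library, while the percentages of 1.75 and 2.63 in Ctrl and 1.10 and 2.15 in Nar overlap.

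The blood origin of the libraries was visible in the haemoglobin share given above. Of markers with a Nar mean of at least 0.5 FPKM, 4 of 6 monocyte and 1 of 2 NK cell markers were called lower, beside 31.6% of all such genes. Another 2 monocyte and 2 NK cell markers passed the filter only through the controls and were not called, and the counts and medians below include them. After median-of-ratios scaling 0 of the 8 monocyte and 0 of the 4 NK cell markers were called, with 1 monocyte and 0 NK cell markers at an unadjusted p under 0.05. On deposited FPKM, 0 of 6 B cell, 0 of 5 T cell, 0 of 7 platelet, 0 of 11 erythroid and 0 of 1 eosinophil and basophil markers were called, and 0 of 10 haemoglobin genes. In the order named, the median log2 fold changes were -1.61, -1.24, -0.25, -0.47, -1.11, 0.38 and 0.26 for the cell types and -0.07 for haemoglobin. At an unadjusted p under 0.05, which 56.9% of all tested genes reached, 1 T cell marker, 1 platelet marker and 3 haemoglobin genes passed, and no B cell, erythroid, eosinophil or basophil marker did. After median-of-ratios scaling 3 of 10 haemoglobin genes were called higher, and 10 of 11 erythroid and 2 of 6 B cell markers had an unadjusted p under 0.05, beside 14.0% of all tested genes. Without haemoglobin genes 1 erythroid marker was called higher and 7 of 11 had an unadjusted p under 0.05, beside 21.5% of all tested genes. Epidermis, the other known site of stefin A expression, was hardly represented. Of 10 keratinocyte markers 7 had values, Krt14 was listed at 0 in all libraries, and the summed FPKM of the list was 0.22 to 0.37 in controls and 0 to 0.01 with Nar.

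The genes whose pattern over the 4 libraries was most like that of the Stefin A sum were sought by the Euclidean distance between log2 values centred on each gene's mean. Dusp1, a phosphatase of MAP kinases, was nearest at a distance of 0.212, with 31.63, 33.39, 1.06 and 3.03 FPKM in Ctrl 1, Ctrl 3, Nar 1 and Nar 3. Retnlg followed at 0.505, Cd33, an inhibitory sialic acid receptor of myeloid cells, at 0.590 and Mmp8, the neutrophil collagenase, at 0.614. The next were a gene without a symbol at 0.672, Wfdc21 at 0.789, Upp1 at 0.796, the lipopolysaccharide co-receptor Cd14 at 0.819, Asprv1, an aspartic protease, at 0.827 and Lilrb4a, an inhibitory receptor, at 0.860. The members themselves were farther from their own sum, at 1.02 for Stfa3, 1.73 for Stfa2, 1.79 for Stfa2l1 and 1.89 for Stfa1. With 4 libraries this likeness is a description only.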

How the data were processed

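Blood RNA of mice was sequenced in 2 control and 2 Nar libraries, grouped by their labels. The values deposited by the authors were FPKM with 2 decimals. The study's methods name bowtie-2 against reference gene sequences, whereas the submitters' processing notes name TopHat2, Cufflinks and GRCm38. The annotation and read length are not given in the sources used here. The depth is unknown, since the deposited FPKM holds no counts, so neither a count test nor a counting interval could be given.

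Of 23136 genes listed, 5313 were blank and 17823 had values. Values were analysed as log2(FPKM + 0.1) with limma 3.58.1 in R 4.3.3 (trended variances, Benjamini-Hochberg adjustment) over the 5339 genes with a mean of at least 0.5 FPKM. A gene was called at an adjusted p under 0.05 and a change over 2-fold. An exact permutation test of 2 against 2 libraries has a smallest two-sided p of 0.333, so none was used for single values. The 4 members, the gene lists and the tests were chosen with earlier results of these data known. Named were the members, the cystatins of the locus and family and the cathepsins with a value above 0, of the neutrophil markers the 3 most abundant and the 3 lowest and 3 highest fold changes, the defining markers of other cell types listed at 0, and the 10 genes nearest in pattern to the Stefin A sum. The genes next to the cluster, and Padi4, named for passing the filter only through the controls, fall outside this rule.

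The alternatives were pseudocounts of 1 and 0.01, rescaling to TPM, removal of haemoglobin genes, median-of-ratios scaling, no filter, a mean of at least 5 FPKM, no variance trend, a replicate block and leaving out each library, where a lone library was assumed to vary like the other group. Sequences were taken from RefSeq promoters and GENCODE M21 transcripts, both on GRCm38 (RefSeq on its patch release), and aligned with Biopython 1.88. Shared stretches were counted on both strands over all GENCODE M21 transcripts. The limma step was tested on simulated data. Plots were made in Python 3.11.15 (matplotlib 3.10.9).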

Additional observations from a re-analysis of the deposited data

How the results depend on the processing

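The Stefin A values, alone, summed and against the neutrophil median, kept their direction under the alternatives run for each. Of the named tested genes, rerun after the results were known, 2010005H15Rik turned from -0.47 to 0.038 without haemoglobin genes and to 0.53 after median-of-ratios scaling, and with a library left out Ctsb, at 0.23, ran from -0.054 (without Ctrl 1) to 0.52 and Ctsf, at 0.33, from -0.28 (without Ctrl 1) to 0.94. The 2106 genes called over the whole table became 670 with a pseudocount of 1, 281 (267 lower and 14 higher) without haemoglobin genes, 24 (19 lower and 5 higher) after median-of-ratios scaling, 0 without a filter (of 16382 genes, 4978 with an unadjusted p under 0.05), 117 of 1083 at a mean of at least 5 FPKM, and 0 to 258 when 1 library was left out, 0 without either control. Called cathepsins, of all 8 tested and with Ctsl and Ctsw, which passed the filter only through the controls, went from 5 to 6 without the variance trend, to 3 with a pseudocount of 1, to 0 without haemoglobin genes, after median-of-ratios scaling or without a filter, to 1 of 3 at a mean of at least 5 FPKM and to 0 to 1 with a library left out. The 2 other cystatin genes called, Cstb and Cst7, which likewise passed only through the controls, became 3 without the trend, with Cst3, and 0 with a pseudocount of 1, without haemoglobin genes, after median-of-ratios scaling, without a filter and at a mean of at least 5 FPKM, and 0 to 0 with a library left out. The 18 neutrophil markers became 3 after median-of-ratios scaling (Ngp and, passing the filter only through the controls, Camp and Ltf), 0 without a filter, 11 of 11 at a mean of at least 5 FPKM, where fewer were tested, and 0 to 15 with a library left out. The median log2 fold change of the 18 markers was -3.14 without Ctrl 1, -3.68 without Ctrl 3, -3.19 without Nar 1 and -3.60 without Nar 3. In the same order, the median of all tested genes was -1.19, -0.95, -1.22 and -0.93. The log2 fold change of the Stefin A sum moved from -3.98 to -2.90 after median-of-ratios scaling and ran from -4.75 to -3.22 with a library left out, and its difference from the neutrophil median, -0.63, ran from -1.15 without Nar 3 to -0.032 without Nar 1. Apart from the smaller number of genes or libraries in some alternatives, the cause was not tested.

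Libraries with the same number did not deviate together (correlation -0.153), so the numbers were not taken to pair them. With a replicate block 1802 of all 5339 tested genes were called lower and 11 higher. Beside this, 3 of 8 cathepsins, 2 of 3 other cystatins and 18 of 18 neutrophil markers were called lower. Among genes with a Nar mean of at least 0.5 FPKM these were 1 of 6 cathepsins (Ctsc, while Ctsh and Ctss lost their calls at limma adjusted p-values of 0.0615 and 0.0752), 0 of 1 other cystatin and 15 of 15 neutrophil markers. A crossed block, chosen after seeing the data, called 2844 of all 5339 tested genes lower and 17 higher. Beside this, it called 6 of 8 cathepsins, 3 of 3 other cystatins and 18 of 18 neutrophil markers lower. Among genes with a Nar mean of at least 0.5 FPKM the crossed block called 4 of 6, 1 of 1 and 15 of 15. Of all tested markers, whatever their Nar mean, the replicate block called 5 of 8 monocyte, 2 of 4 NK cell and 0 of 7 platelet markers lower. The crossed block called 6, 2 and 5 of them lower. Each block called 1 of 10 haemoglobin genes lower and no B cell, T cell, erythroid, eosinophil or basophil marker. With 2 libraries a group, rounded FPKM and unknown depth, values near 0 such as those of Stfa3 with Nar carry an error that cannot be given.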
